A study of Mus musculus with 2 samples.

Results

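Ribosome-protected fragments of 10 immediate-early genes were compared between spinal cords of mice heterozygous for the C201R allele of Gars and of wild-type mice. The genes were Fos, Jun, Junb, Jund, Egr1, Nr4a1, Klf6, Ier2, Dusp1 and Btg2, taken from the tables by Ensembl identifier, and all 10 were among the 12530 mouse genes listed. The set was selected on the read counts and RPKM values of these same libraries, so every value below is a description, and no difference between the genotypes was tested.

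Immediate-early genes are switched on within minutes of a stimulus, without the need for new protein synthesis, and their messengers and proteins are short-lived. In the nervous system they respond to neuronal firing, growth factors and stress, and Fos and Egr1 are widely used as markers of recently active neurons. Fos and the Jun proteins pair through leucine zippers to form AP-1, a transcription factor. Jund differs from the other members of its family in that it is present in many resting cells.

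Each genotype was represented by 1 library. The first, HET, came from Gars C201R/+ mice and the second, WT, from wild-type mice. In both cases whole spinal cord was flash-frozen and the lysates of 3 animals were pooled, so the spread between animals is not in the tables. Ribosome profiling sequences the stretches of RNA that ribosomes shield from RNase I. The series holds no matching RNA library, so a messenger's amount and its translation could not be told apart. In whole tissue, fewer expressing cells and fewer reads per cell likewise cannot be told apart.

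The HET library held 3491159 reads over mouse genes and the WT library 7770935, so WT was sequenced 2.23 times as deeply. Per gene, the median was 96 reads in HET and 206 in WT. The lowest RPKM (reads divided by gene length and by library size) listed was 0.501 in HET and 0.183 in WT. The identifiers are paired with symbols for these 10 genes alone, so Gars itself, the markers of spinal cord cell types and the other immediate-early genes were not analysed here.

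The identities of the genes were set against RefSeq on GRCm38.p6. The gene length behind the RPKM values was 3189 nt for Jun (ENSMUSG00000052684, chr4:95049036-95052222), where the RefSeq gene spans 3187 nt. It was 1524 nt for Ier2 (ENSMUSG00000053560, chr8:84661331-84662852), against a span of 1522 nt. It was 1809 nt for Junb (ENSMUSG00000052837, chr8:84976909-84978748), against 1840 nt. These 3 genes have no intron, so the length counted and the span can be compared directly, and they lay within 31 nt of each other. Jund (ENSMUSG00000071076, chr8:70697739-70700616) had a length of 1668 nt against a span of 2878 nt, so the window before its RefSeq start may not lie next to the transcript that was counted. Egr1 (ENSMUSG00000038418) had 4484 nt, more than its span of 3750 nt, so the annotation used for counting was not that of RefSeq for this gene. A ratio between the libraries does not depend on the length, whereas the RPKM of a gene does.

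The stretches before the gene starts are shown for the 3 genes that were lower in HET by the rule given below (Fos, Nr4a1 and Klf6), for Jund, the most abundant of the 10, and for Dusp1, whose window holds a complete cAMP response element. Each is the 250 bases before the start that the RefSeq promoter table gives on GRCm38.p6, read 5′ to 3′. For Nr4a1 that start lies inside the RefSeq span of the gene (chr15:101253902-101274795), not at its outer end. Fos lies at chr12:85473640-85473889 (+ strand), Nr4a1 at chr15:101266596-101266845 (+ strand), Klf6 at chr13:5861239-5861488 (+ strand), Jund at chr8:70697489-70697738 (+ strand) and Dusp1 at chr17:26508473-26508722 (- strand). Capitals mark TGACG, the core of the cAMP response element (CRE) through which CREB acts, on either strand, and TATAAA, the TATA box, on the strand of the gene.
Fos: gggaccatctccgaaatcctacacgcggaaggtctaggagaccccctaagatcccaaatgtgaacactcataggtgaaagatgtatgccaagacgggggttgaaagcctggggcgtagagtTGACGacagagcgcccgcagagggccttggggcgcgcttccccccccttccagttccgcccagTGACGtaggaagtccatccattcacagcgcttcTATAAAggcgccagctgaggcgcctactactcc
Nr4a1: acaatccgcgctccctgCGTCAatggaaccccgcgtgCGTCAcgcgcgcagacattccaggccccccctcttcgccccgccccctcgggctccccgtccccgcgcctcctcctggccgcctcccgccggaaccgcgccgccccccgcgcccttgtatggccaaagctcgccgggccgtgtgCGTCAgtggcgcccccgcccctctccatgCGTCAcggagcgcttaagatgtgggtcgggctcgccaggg
Klf6: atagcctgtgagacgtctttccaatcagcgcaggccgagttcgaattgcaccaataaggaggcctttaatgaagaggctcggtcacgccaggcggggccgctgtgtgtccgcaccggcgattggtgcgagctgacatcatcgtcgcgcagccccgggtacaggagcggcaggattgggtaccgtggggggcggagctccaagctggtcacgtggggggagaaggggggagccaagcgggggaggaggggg
Jund: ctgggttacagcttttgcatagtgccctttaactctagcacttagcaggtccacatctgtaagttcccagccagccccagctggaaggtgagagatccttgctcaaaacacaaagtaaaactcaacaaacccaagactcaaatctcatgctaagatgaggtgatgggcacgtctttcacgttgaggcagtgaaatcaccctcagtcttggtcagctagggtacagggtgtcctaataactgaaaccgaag
Dusp1: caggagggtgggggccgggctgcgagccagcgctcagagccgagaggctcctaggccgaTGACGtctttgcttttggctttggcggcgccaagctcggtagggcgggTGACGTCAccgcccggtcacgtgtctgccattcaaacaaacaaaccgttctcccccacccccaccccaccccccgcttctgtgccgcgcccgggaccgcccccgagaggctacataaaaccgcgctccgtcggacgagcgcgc

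A window was used for 8 of the 10 genes. Ier2 had no entry, and windows of the 10 genes on chromosome 18, where Egr1 lies, were left out. The shares over all windows were taken without that exclusion. The CRE core TGACG occurred in 5 of the 8 windows (Fos, Junb, Nr4a1, Dusp1 and Btg2), whereas 17.8% of the 32851 windows in the table held it. The core was added to the motifs after the windows had been read. The complete element TGACGTCA, which contains the core on both strands, was present in 2 of the 8 windows, against 1.55% of all windows. It lay at -143 to -136 in Dusp1 and at -166 to -159 in Btg2, with -1 the last base before the start. The GC box GGGCGG, searched on both strands, was in 6 of the 8 windows and in 32.7% of all. TATAAA occurred in 1 of the 8, at -33 to -28 in Fos, and in 7.59% of all. The serum response element was matched in 0 of the 8 windows and in 1.47% of all, which says only that its letters are not in these stretches.

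**Figure D1:**
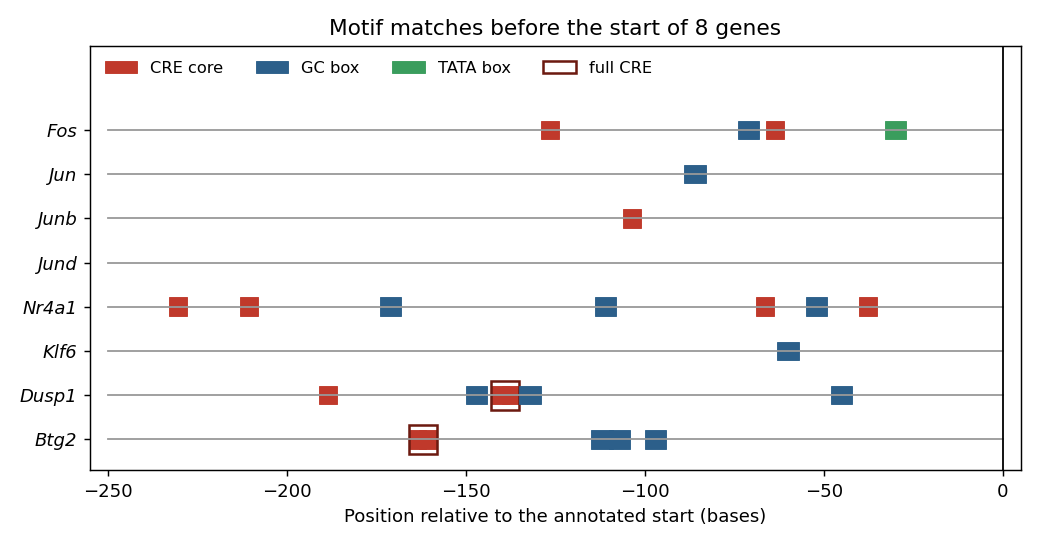
Motif matches in the 250 bases before the start given by the RefSeq promoter table for 8 genes, by position relative to that start, which for Nr4a1 lies inside the gene's span. Filled boxes are CRE cores (TGACG), GC boxes and the TATA box, open boxes complete CREs. Nr4a1 holds 4 cores, and Dusp1 and Btg2 each hold a complete element. The window of Jund, which may not lie next to the transcript that was counted, holds none of these motifs.

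Of the 3 genes called lower in HET, Nr4a1 carried 4 cores, Fos 2 and Klf6 none. The Jund window, which may not lie next to the transcript counted, had a GC content of 47.6%, the lowest of the 8. The next lowest was the Fos window at 58.4%, and the Nr4a1 window had the highest at 74.4%. The median over all windows was 52.4%, so every window but that of Jund lay above it. The shares of motifs over all windows were not matched for GC content.

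Fos stood furthest below its WT level, and the AP-1 subunits differed in direction among themselves. Ratios are given as HET over WT after TMM scaling, a scaling that assumes most genes are alike in both libraries. Their 95% intervals cover counting error alone. The RPKM levels are as deposited, without TMM scaling, so their quotient differs slightly from the ratio. Jun and Egr1 are thus slightly higher in HET by RPKM and slightly lower by the ratio. To be called higher or lower, a gene needed at least 100 reads over HET and WT combined, a ratio of 1.5-fold or more in that direction, and an interval that did not reach 1.

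Fos (ENSMUSG00000021250, chr12:85473890-85477274), the partner that Jun proteins need for the most stable form of AP-1, had 100 reads (95% Poisson interval 81.4 to 122) in HET, against 456 reads (415 to 500) in WT. Its level was 13.5 RPKM in HET and 27.8 RPKM in WT. The ratio was 0.471 (0.375 to 0.585), or -1.09 on the log2 scale, so Fos was called lower. The HET count was below the WT count by more than the 2.23-fold difference in depth alone would give. Of the 9726 genes with 100 or more reads, 2.05% had a log2 ratio as low as that of Fos or lower. When these genes were ordered by reads and divided into 10 groups of equal size, the share was 1.44% among the 973 genes in the group of Fos.

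Jun, the founding member of its family, did not differ beyond counting error, with 423 reads (384 to 465) in HET, against 910 (852 to 971) in WT. Its level was 37.7 RPKM in HET and 36.6 RPKM in WT, a ratio of 0.997 (0.886 to 1.12). Junb, a relative of Jun with a weaker activating effect, had 176 reads (151 to 204) in HET, against 524 (480 to 571) in WT. Its level was 27.6 RPKM in HET and 37.2 RPKM in WT. The ratio of 0.721 (0.604 to 0.856) excluded equal levels but fell short of the fold limit.

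Jund went the other way. It had 949 reads (890 to 1011) in HET, against 1474 (1400 to 1551) in WT, and its level was 162 RPKM in HET and 113 RPKM in WT. The ratio was 1.38 (1.27 to 1.499), again short of the fold limit. The interval is narrow because Jund had the most reads of the 10 genes. Of the genes in its group by reads, 4.32% had a ratio as high or higher.

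**Figure D2:**
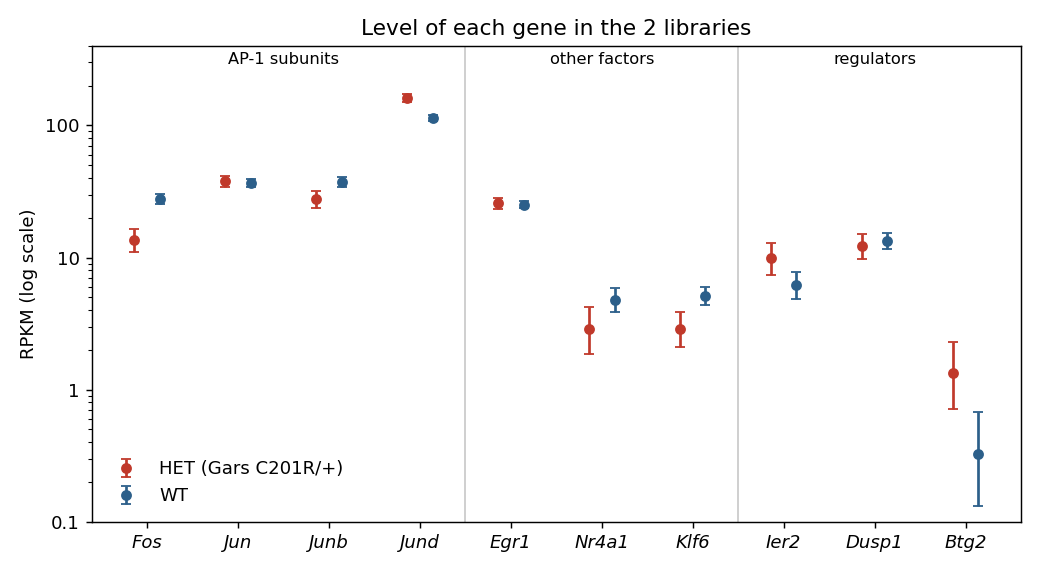
Level of each of the 10 genes in RPKM, on a log scale, in the HET library (left point of each pair) and the WT library (right point), with 95% Poisson intervals of the counts. Fos, Junb and Klf6 are lower in HET, and Jund and the weakly covered Btg2 higher, with intervals that do not overlap. Nr4a1 is also lower and Ier2 higher, but their intervals overlap. Jun and Egr1 are at almost the same level, and Jund is the most abundant in both libraries.

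The make-up of the AP-1 subunits differed accordingly. Jund accounted for 67.2% of the summed RPKM of the 4 genes in HET and for 52.8% in WT, and Fos for 5.61% in HET and 12.9% in WT. The sum itself was 240 RPKM in HET and 215 RPKM in WT. The share of Jun was 15.7% in HET and 17.0% in WT, and that of Junb 11.5% in HET and 17.3% in WT. Reads per kilobase of gene length are a rough measure between genes here, because ribosomes cover the coding sequence and the length used includes more than that.

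**Figure D3:**
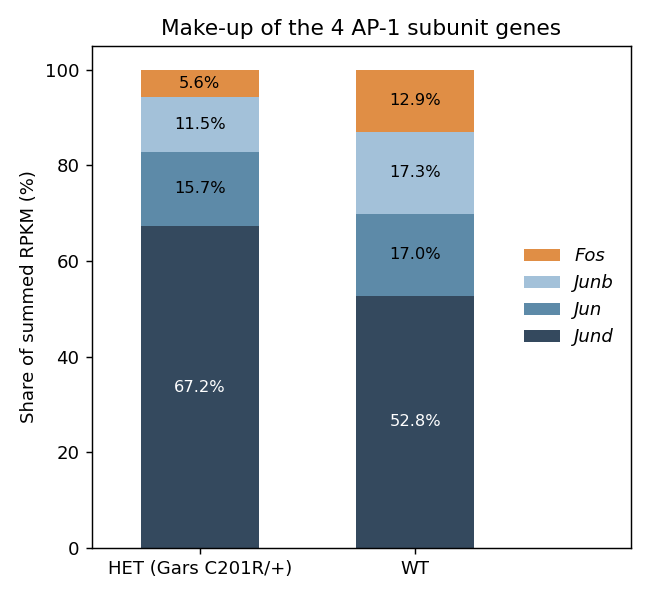
Share of Jund, Jun, Junb and Fos in the summed RPKM of the 4 AP-1 subunit genes, in percent, for the HET library (left bar) and the WT library (right bar). Jund makes up 67.2% in HET and 52.8% in WT, Fos 5.61% and 12.9%.

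Of the other transcription factors, Klf6 and Nr4a1 were called lower in HET and Egr1 was level. Klf6 (ENSMUSG00000000078, chr13:5861489-5870393), a Krüppel-like zinc finger protein that binds GC-rich sequence, had 43 reads (31.1 to 57.9) in HET, against 168 (144 to 195) in WT. Its level was 2.89 RPKM in HET and 5.10 RPKM in WT. The ratio was 0.551 (0.383 to 0.771), and 5.25% of the genes in its group by reads were as low or lower. The call was lost with a 2-fold limit. A minimum of 500 reads left Klf6 out, since it had 211 reads in both libraries together.

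Nr4a1 (ENSMUSG00000023034, chr15:101253902-101274795), an orphan nuclear receptor, had 25 reads (16.2 to 36.9) in HET, against 92 (74.2 to 113) in WT. Its level was 2.87 RPKM in HET and 4.77 RPKM in WT, and the ratio was 0.586 (0.359 to 0.915). Nr4a1 lay in the group with the fewest reads, where ratios spread widely, and 13.7% of that group were as low or lower. Its position there was thus less extreme than that of Fos or Klf6 among genes with reads like theirs. Its call was lost with a 99% interval or a 2-fold limit. With a minimum of 500 reads, or after thinning of the WT library, Nr4a1 had too few reads to be called.

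Egr1 (chr18:34861207-34864956), a zinc finger factor induced through the MAP kinase pathway, had 405 reads (367 to 446) in HET, against 880 (823 to 940) in WT. Its level was 25.7 RPKM in HET and 25.2 RPKM in WT. The ratio was 0.987 (0.875 to 1.11), so that equal levels lay inside the interval, as for Jun.

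**Figure D4:**
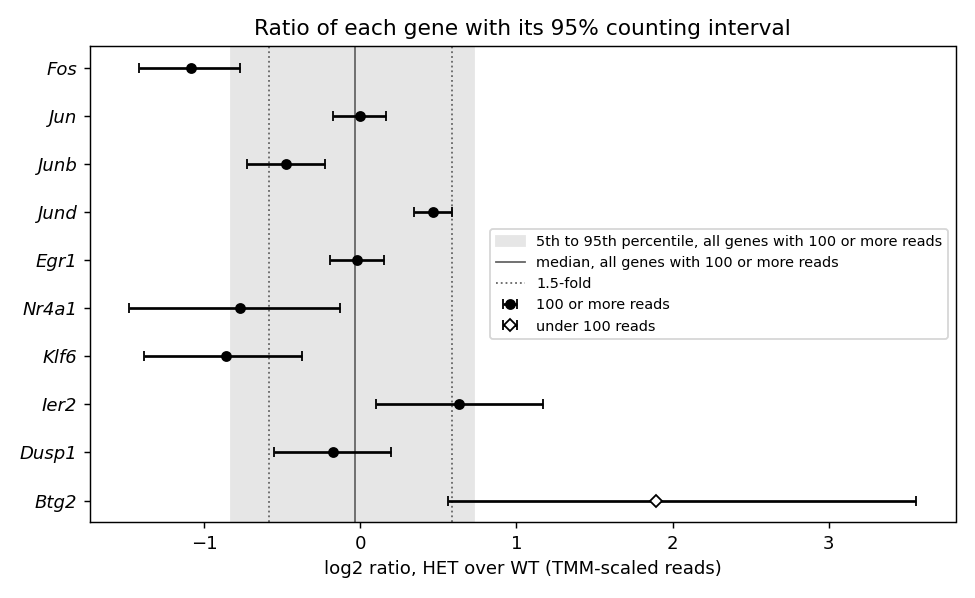
Log2 ratio of HET over WT for each gene, with its 95% counting interval. The grey band runs from the 5th to the 95th percentile of all genes with 100 or more reads (-0.83 to 0.73), the solid line is their median and the dotted lines mark 1.5-fold. Fos lies below the band, Klf6 just beyond its lower edge, and the open diamond is Btg2, with fewer than 100 reads.

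The 3 regulators showed no common direction. Ier2, a small nuclear protein of the early growth factor response, had 53 reads (39.7 to 69.3) in HET, against 73 (57.2 to 91.8) in WT. Its level was 9.88 RPKM in HET and 6.15 RPKM in WT. The ratio of 1.55 (1.07 to 2.25) passed the fold limit narrowly, and Ier2 was the only one of the 10 called higher. The call was lost with a 99% interval or a 2-fold limit. With a minimum of 500 reads, or after thinning of the WT library to the HET total, Ier2 had too few reads to be called. The thinning was a single random draw, and the log2 ratio of Ier2 after it was 0.46 against 0.63. In its group by reads, the same as that of Nr4a1, 16.6% of the genes were as high or higher.

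Dusp1 (ENSMUSG00000024190, chr17:26505591-26508472), a phosphatase that switches off MAP kinases, had 86 reads (68.8 to 106) in HET, against 208 (181 to 238) in WT. Its level was 12.3 RPKM in HET and 13.4 RPKM in WT, and the ratio of 0.887 (0.681 to 1.15) included equal levels.

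Btg2 (ENSMUSG00000020423, chr1:134074865-134079155), an antiproliferative protein that recruits the deadenylation machinery, was nearly uncovered, with 13 reads (6.92 to 22.2) in HET, against 7 (2.81 to 14.4) in WT. Its level was 1.35 RPKM in HET and 0.328 RPKM in WT. The ratio of 3.72 (1.48 to 11.8) is the highest of the 10, but Btg2 fell under the minimum of 100 reads and received no call. No gene was listed below 0.501 RPKM in HET, so a gene at the WT level of Btg2 was in the table only if its RPKM in HET was at least 1.53 times as high. With a minimum of 20 reads or none, Btg2 was called higher too.

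In all, 9 of the 10 genes passed the read minimum. By the rule, 3 were called lower (Fos, Nr4a1 and Klf6), where 11.2% of all 9726 genes were, and 1 was called higher (Ier2), where 8.14% were. The interval excluded equal levels for 6 of the 9, against 51.9% of all genes. Since the set was chosen from these values, nothing is read from these shares. Just inside the fold limit stood Ier2 at 1.55, and just outside it Jund at 1.38 and Junb at 0.721. The median log2 ratio of the 10 genes was -0.096, against -0.034 over all genes with 100 or more reads.

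**Figure D5:**
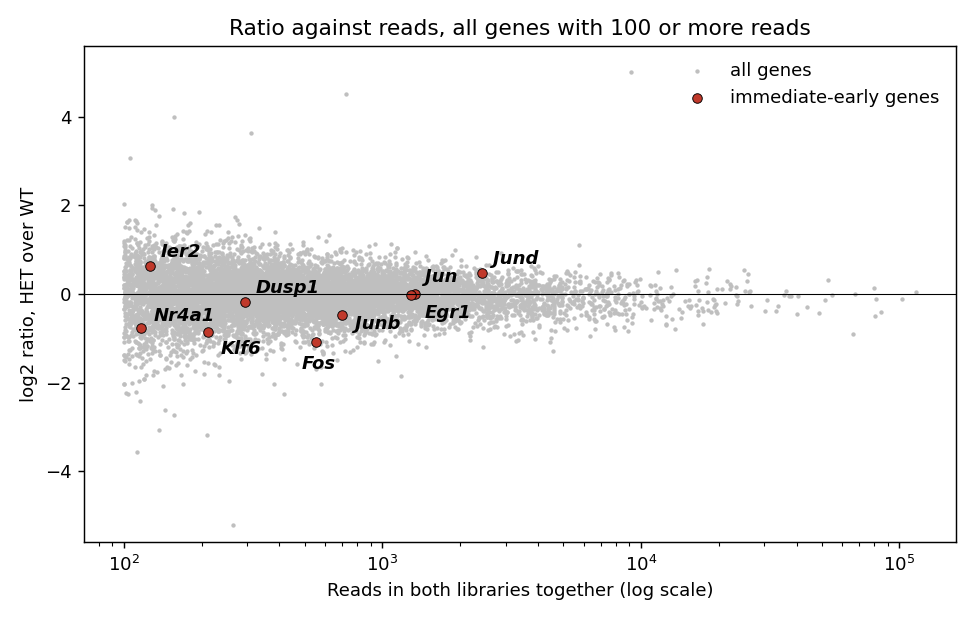
Log2 ratio of HET over WT against the reads of both libraries together (log scale) for 9726 genes with 100 or more reads (grey) and the 9 immediate-early genes among them (red). The grey cloud is wider at low reads, where Nr4a1 and Ier2 lie, and Fos sits near its lower edge.

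The summed reads of the 10 genes hid these differences. Together they took 0.0651% of the gene reads in HET (95% Wilson interval 0.0625% to 0.0678%) and 0.0617% in WT (0.0599% to 0.0634%). After TMM scaling, which the shares do not include, the log2 ratio of the sums was 0.025 (-0.048 to 0.097). Without Jund, a comparison chosen after its values were seen, the other 9 took 0.0379% in HET (0.0359% to 0.0400%) and 0.0427% in WT (0.0413% to 0.0442%). The TMM-scaled log2 ratio was then -0.22 (-0.32 to -0.13), so that the sum over all 10 rested on Jund.

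Ratios between 2 genes of the same library do not depend on how the libraries are scaled. The number of Fos reads per Jun read, per length, was 0.358 in HET and 0.758 in WT, a quotient of 0.472 (95% counting interval 0.365 to 0.606). That of Fos to Jund was 0.0834 in HET and 0.245 in WT, a quotient of 0.341 (0.268 to 0.431). Jun to Egr1 stood at 1.47 in HET and 1.45 in WT, a quotient of 1.01 (0.854 to 1.195). The balance of Fos to Jun and to Jund thus differed between the libraries by more than counting error, and that of Jun to Egr1 did not.

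The proportions among the 3 genes called lower, which were picked after their values were seen, differed by less than counting error. The quotient of HET over WT was 0.857 (0.567 to 1.31) for Fos to Klf6, 0.807 (0.485 to 1.38) for Fos to Nr4a1 and 1.06 (0.582 to 1.91) for Nr4a1 to Klf6. These intervals are wide, and they do not show that the proportions were equal. Over all 45 pairs of the 10 genes, the interval excluded an equal proportion for 33. The share over pairs of all genes was not computed, so nothing is read from this count. For single genes with 100 or more reads, the interval excluded equal levels for 51.9%.

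The order of the genes by RPKM was nearly the same in both libraries, with 43 of the 45 pairs in the same order. Their levels lay far apart, from 1.35 RPKM (Btg2) to 162 RPKM (Jund) in HET. The share over pairs of all genes was not computed, so nothing is read from that count either. In HET the order ran from Jund through Jun, Junb, Egr1, Fos, Dusp1, Ier2, Klf6 and Nr4a1 to Btg2. In WT, Junb stood before Jun and Fos before Egr1. Several neighbours did not differ beyond counting error. In HET these were Junb and Egr1, Fos and Dusp1, Dusp1 and Ier2, and Klf6 and Nr4a1. In WT they were Junb and Jun, Fos and Egr1, Ier2 and Klf6, and Klf6 and Nr4a1. The step from Egr1 down to Fos in HET was 1.90-fold (1.53 to 2.39), whereas in WT Fos was 1.10-fold above Egr1 (0.982 to 1.24). Against all listed genes, Fos stood above 62.8% of them in HET and above 80.3% in WT, and Egr1 above 78.3% in HET and 78.2% in WT.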

How the data were processed

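Per the labels, ribosome-protected fragments of spinal cord were sequenced from 1 library of 3 pooled animals per genotype. For each gene the authors deposited a count of reads and its RPKM. Per the submitters' processing notes, the tools were Bowtie 1.2.2 and HTSeq 0.9.1 and the build GRCm38. Annotation release, strand setting and the counted part of a gene were not given in the sources used here, so reads shared with overlapping or antisense genes could not be told apart. Gene lengths were recovered from reads and RPKM.

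Symbols of the 10 genes were supplied with their identifiers. RefSeq (GRCm38.p6) holds all 10 symbols but 0 of the Ensembl identifiers, so 13 further gene lists were not analysed. The genes and lists were chosen with earlier results of these data known.

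Counts were scaled with TMM (edgeR 4.0.16, R 4.3.3) over the 12530 genes, without the 18 ERCC spike-ins. Log2 ratios used a prior count of 0.5. Their intervals are exact conditional binomial, those of pairs exact conditional odds ratio intervals, all at 95% and for counting error only. With 1 library per genotype no model was fitted and no p-value computed. Alternatives were other scalings (DESeq2 1.42.0 among them), thinning of the WT reads, and other limits. Thinning was a single random draw, so values after it would vary with another draw. Calls were checked first on simulated data that held counting error alone. That check does not cover spread between animals or libraries. Intervals and figures were made in Python 3.11.15 with scipy 1.17.1 and matplotlib 3.10.9. No paired analysis was possible because each genotype has 1 library.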

Additional observations from a re-analysis of the deposited data

Results flagged for a closer look

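The ERCC spike-ins, synthetic RNAs that take no part in the comparison of the 10 genes, made up 0.650% of the listed reads in HET and 0.00669% in WT. They are given here because they are a signal outside the mouse genes. The labels do not state how they were added. The effect of scaling to them is given with the other scalings.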

How the results depend on the processing

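Under total-count, DESeq2, upper-quartile and RPKM-based scaling, and with genes above 1% of a library left out, the same 3 genes (Fos, Nr4a1 and Klf6) were called lower and the same gene, Ier2, higher. Of all genes, 9.45% to 11.2% were then lower and 8.11% to 9.79% higher. These scalings shift the genes by 1 common amount, apart from the RPKM ratio, which uses no prior count and moves weakly covered genes further. Over them, thinning and a prior count of 2, Fos stayed between -1.09 and -1.02 on the log2 scale, Klf6 between -0.92 and -0.81 and Jund between 0.46 and 0.52. With no read minimum or one of 20 reads, 2 genes were higher, Ier2 and Btg2, against 11.0% and 10.9% of all genes. The call of Ier2 was lost, leaving 0 higher, with a 99% interval (7.58% of all genes higher), a 2-fold limit (1.71%), a minimum of 500 reads (3.53%) and thinning of WT to the HET total (7.77%). A 2-fold limit left 1 gene lower, Fos, where 2.75% of all genes were. A minimum of 500 reads also left 1 lower, Fos, with 5 of the 10 genes past it and 7.77% of all genes lower. The 99% interval and thinning left 2 lower, Fos and Klf6, against 10.2% and 9.76% of all genes. After thinning, 7 of the 10 genes were past the minimum. Nr4a1 and Ier2 fell under it, Nr4a1 at a ratio as low as before (-0.79). Scaling to the spike-ins moved the median log2 ratio of the 10 genes to -6.65 and gave 0 higher and 9 lower. It turned Ier2 to -5.89, Jund to -6.09 and Btg2 to -4.46. It shifts every gene by 1 common factor and called 100% of all genes with 100 or more reads lower. No library could be left out, and counts as low as those of Btg2, Nr4a1 and Klf6 limit their ratios most.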
